A study of Bos taurus with 10 samples.

Results

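Cytokines, chemokines and their receptors were examined in back muscle (longissimus dorsi) of Hanwoo, cattle native to Korea and kept for beef. They were chosen by gene symbol: CCL, CXCL, CCR, CXCR or IL followed by a number, or a symbol that begins with TNFSF or TNFRSF. This gave 82 of the 9155 genes with a symbol on the array, covered by 108 probe sets, and the brightest probe set stood for each gene. They comprise 25 chemokine ligands, 8 chemokine receptors, 20 interleukins, 19 interleukin receptors and receptor subunits, 3 TNF superfamily ligands and 7 TNF receptor superfamily members. Each of 10 arrays held poly(A) RNA of 1 muscle sample. The samples form 1 group with no treatment given and are called animals 1 to 10 here. The label of animal 1 states an age of about 2 years. The series was designed to correlate expression with meat traits, which were not analysed here, so no groups were compared.

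Cytokines are secreted or membrane-bound proteins through which immune, stromal and muscle cells signal to each other. Chemokines guide migrating leukocytes through G protein-coupled receptors. Interleukins act mostly through receptors coupled to JAK kinases and STAT factors or to MYD88 and NF-kB, and the TNF family acts through TRAF adaptors or death domains. In skeletal muscle they take part in the clearing of damaged fibres, in regeneration and in exchange between muscle and fat.

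Levels are given as quantile normalized log2(signal + 16), on which differences between dim probe sets understate the true ratio. Muscle fibre markers checked the tissue: all 10 measured genes of that list had means from 15.22 to 15.90. A line for dim genes was drawn at 6.98, the median mean level over the array without control probe sets. Above it were 9 of 18 leukocyte markers, with C1QA highest at 8.79, 3 of 11 T cell markers, 1 of 4 B cell markers, 0 of 6 granulocyte markers, 7 of 9 endothelial markers and 10 of 10 fibroblast markers. In bulk muscle, fewer cells of a type and less RNA per cell cannot be told apart. The arrays of animals 1, 6 and 10 had deposited medians of 131, 134 and 131 against 111 to 122 in the other 7, and hybridization controls at 13.00 to 13.14 against 11.18 to 12.65. In animal 5 the spiked poly(A) transcripts read 2.80 higher at the 3' than at the 5' end, against 1.09 to 1.38 in the others. Animals 3 and 7 had the highest scores of plasma protein genes, led by FGG, TF and HP, at 2.09 and 1.99 against -1.44 to 0.53.

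Most of these genes gave little signal in the muscle. Of the 82, 18 had a mean above the line of 6.98, which is 22.0%, against 68.5% of all named genes. By family, 7 of 25 chemokine ligands, 4 of 20 interleukins, 4 of 19 interleukin receptors and 3 of 7 TNF receptor superfamily members passed. None of 8 chemokine receptors and none of 3 TNF superfamily ligands did. Of the 64 dim genes, 38 were below the line in every animal. A dim probe set can mean little RNA or a poor probe, so these values do not show that a gene was silent. Probe sets differ in how strongly they bind, and no order is read between genes.

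**Figure D1:**
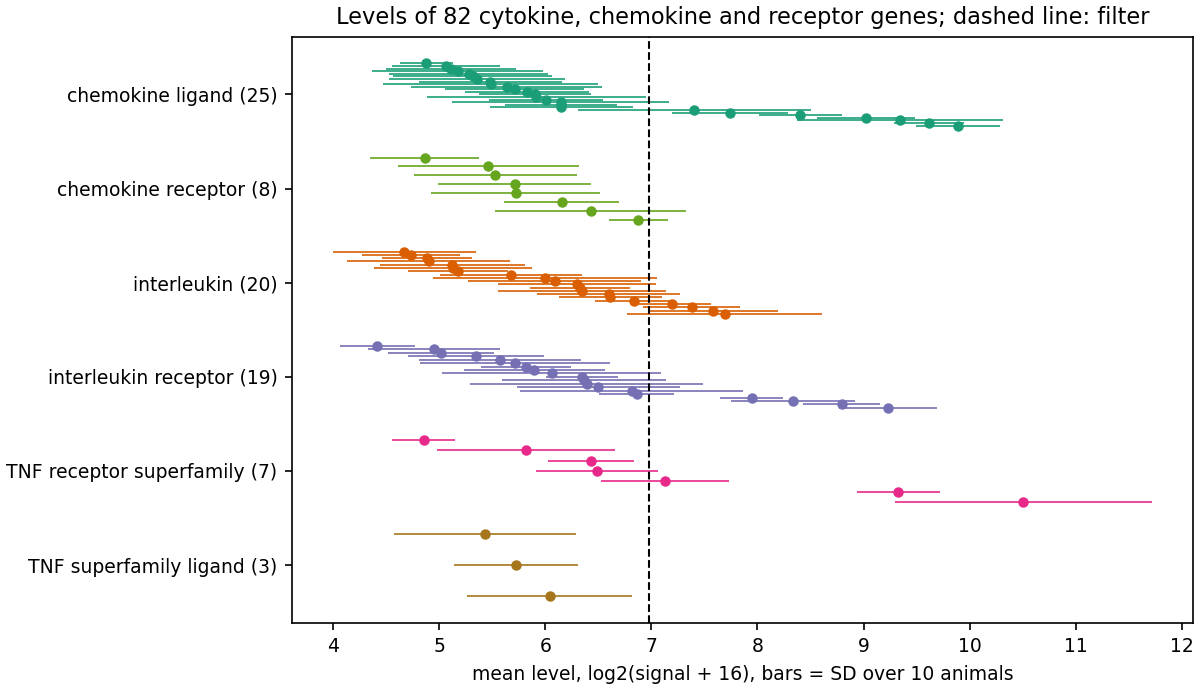
Mean level of each of the 82 genes on the log2(signal + 16) scale (x axis), grouped by family with the number of genes in brackets (y axis); bars are the SD over 10 animals and the dashed line is the filter at 6.98. The means of the chemokine receptors and TNF superfamily ligands all lie to the left of the line.

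Just inside the line were TNFRSF21 at 7.13 ± 0.60 (SD, n = 10) and IL18 at 7.19 ± 0.37. Just outside were the chemokine receptor CXCR3 at 6.88 ± 0.28, the common gamma chain IL2RG at 6.86 ± 0.35, IL15 at 6.84 ± 0.36 and the interleukin-1 receptor accessory chain IL1RAP at 6.81 ± 1.05. IL2RG exceeded the line in 5 animals and the interleukin-10 receptor chain IL10RA in 4. CCR3, CXCR3, IL15, IL17RB, IL17RC, IL1B, IL1RAP and TNFRSF25 did so in 3 animals each.

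Among the 7 chemokine ligands above the line, CCL2 and CCL3 varied most between animals; of the dim ones, CCL21, CCL8 and CCL26 had SDs of 1.03, 1.02 and 1.01. CCL2, which draws monocytes into tissue, ran from 5.32 in animal 3 through a median of 7.89 to 8.65 in animal 6. Its low values were in animals 3, 4, 2 and 7, at 5.32, 6.10, 6.80 and 6.81, and the other 6 animals lay between 7.88 and 8.65. The SD of 1.10 was larger than that of 99.2% of tested genes, and it was 0.86 without animals 3 and 7.

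CCL3, a chemokine for monocytes and T cells, ran from 8.42 in animal 2 through a median of 9.02 to 11.43 in animal 6, with an SD of 0.97. Animals 6, 1 and 10 were highest at 11.43, 10.62 and 9.61, and the other 7 lay between 8.42 and 9.20. These are the 3 arrays with the highest medians and hybridization controls. They held the 3 highest values in 1.9% of all tested genes and, among the 18 members tested, in CCL3 alone. Without them the SD of CCL3 was 0.31. The part of array brightness in this spread was not tested.

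The other 5 chemokine ligands above the line varied less. CXCL14, a chemokine of stromal and epithelial cells, ran from 6.89 in animal 7 through a median of 7.76 to 8.72 in animal 6, with an SD of 0.55. CXCL12, the stromal ligand of CXCR4 that retains stem cells and leukocytes in tissue, ran from 8.37 in animal 10 through a median of 9.11 to 9.72 in animal 6, with an SD of 0.46. CXCL16, a membrane-bound ligand of CXCR6, stood at 8.40 ± 0.39. CCL14 had the smallest spread of the 7, at 9.62 ± 0.33, with 10.12, 10.09 and 9.99 in animals 7, 9 and 4 and at most 9.59 in the others. CCL25, known as a ligand of CCR9 that acts in thymus and gut, ran from 9.06 in animal 5 through a median of 9.95 to 10.48 in animal 2.

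The receptors of these ligands gave dim signals. CXCR4, the receptor of CXCL12, stood at 4.86 ± 0.51, CXCR6 at 5.71 ± 0.72 and CCR9 at 5.46 ± 0.85, all below the line in every animal. The other dim chemokine receptors were CXCR3, CCR3, CXCR1, CCR4 and CXCR5, with means from 5.53 to 6.88. The 18 dim chemokine ligands had means from 4.88 for the T cell chemokine CCL5 to 6.15 for CCL4, CCL28 and CCL8. The interferon-induced CXCL10 and CXCL11 stood at 5.83 and 5.48. The neutrophil chemokines CXCL2, CXCL3, CXCL5 and CXCL8 stood at 5.32, 6.01, 5.17 and 5.91, and the lymphoid chemokines CCL19, CCL21 and CXCL13 at 5.06, 5.92 and 5.11. CCL11, CCL20, CCL22, CCL26 and CXCL17 made up the rest. In the gene order of the ARS-UCD2.0 assembly, CCL2 lies by CCL8 and CCL11, CCL3 by CCL4 and CCL14 by CCL5. In each of these 3 neighbourhoods 1 member was above the line and the others were below it.

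Among the interleukins, the 4 above the line were IL16, IL33, IL34 and IL18. IL16, a ligand of CD4, ran from 6.03 in animal 5 to 8.59 in animal 8, with an SD of 0.92. Animal 9 was also low at 6.38 and animal 2 next, and the other 7 lay between 7.72 and 8.59. IL33, an alarmin held in the nuclei of stromal and endothelial cells, ran from 6.13 in animal 5 through a median of 7.61 to 8.16 in animal 3. The SD of 0.61 was 0.36 without animal 5.

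IL34, a ligand of the macrophage receptor CSF1R, ran from 6.64 in animal 5 through a median of 7.42 to 8.22 in animal 8, with an SD of 0.46. IL18, an inflammasome product that raises interferon gamma, stood at 7.19 ± 0.37. On their brightest probe sets all 4 were low in animal 5. It was the lowest animal for IL16, IL33 and IL34 and next to the lowest for IL18. On the second probe set of IL16 and the third of IL33 animal 5 was highest, at 7.25 and 8.48. On the second of IL33 it was next to the lowest, at 4.72. Animal 5 is the array with the large 3' excess of control RNA, and the part of RNA or labelling quality in these values was not tested.

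The classical inflammatory interleukins were dim. IL6 stood at 4.73 ± 0.46, IL1B at 6.60 ± 0.67 and the natural antagonist IL1RN at 6.30 ± 0.74, and IL1A was above the line in 2 animals. IL1B was above it in animals 10, 8 and 9, at 7.65, 7.29 and 7.01. IL15 and IL7, lymphocyte growth factors, stood at 6.84 and 6.61. The lymphocyte products IL2, IL3, IL4, IL5, IL13, IL17A and IL21 had means from 4.67 to 6.35, and the regulatory IL10 and the IL12A and IL12B chains 6.32, 4.89 and 5.13. Tumour necrosis factor itself (TNF), which the symbol rule leaves out, stood at 6.49 ± 0.71.

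Among the interleukin receptors, 3 of the 4 above the line were highest in animal 5 on their brightest probe sets. Animal 5, the array with the large 3' excess of control RNA, was highest for 21.1% of all tested genes. IL13RA1, a chain of the receptors for interleukins 4 and 13, ran from 8.63 in animal 1 through a median of 9.20 to 10.29 in animal 5, with an SD of 0.46, and 0.29 without that animal. IL10RB, shared by the receptors of interleukins 10 and 22 and of type III interferons, stood at 8.79 ± 0.36, with its highest value of 9.39 in animal 5. IL4R, which binds interleukin 4, had the smallest spread of the 18 genes at 7.95 ± 0.30, and its highest value of 8.32 was again in animal 5. On the second probe set of IL4R animal 5 stood at 4.53 against 4.37 to 5.09 in the others. On that of IL13RA1 it stood at 6.89 against 6.80 to 7.87.

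IL6R, the ligand-binding chain of the interleukin-6 receptor, was lowest in animal 5. It ran from 7.38 in animal 5 through a median of 8.29 to 9.54 in animal 9, with an SD of 0.58, and animals 8 and 7 followed the highest at 8.68 and 8.67. The 15 dim receptor genes had means from 4.42 for IL23R to 6.86 for IL2RG, among them the signalling receptor IL1R1 at 6.34 ± 0.34 and its decoy IL1R2 at 5.58 ± 0.76. IL1RAP was high in animals 3 and 7 on its brightest probe set, at 8.35 and 8.78, against 5.43 to 7.01 in the others. Animals 3 and 7 are those with high plasma proteins. On the next brightest probe set of IL1RAP they stood at 4.21 and 5.44, and animal 6 was highest at 6.46. On the dimmest they stood at 4.46 and 4.17, and animal 1 was highest at 5.78. With dim genes kept, the slope of IL1RAP on the plasma protein score was 0.66 (limma adjusted p = 0.939). IL10RA, IL12RB2, IL17RB, IL17RC, IL18R1, IL20RA, IL20RB, IL21R, IL22RA1 and IL2RA were the other dim receptor genes.

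Among the TNF receptors, TNFRSF12A had the largest spread of all 18 genes. TNFRSF12A, also called Fn14, is the receptor of TWEAK and is known to be induced in denervated and injured muscle. It ran from 9.07 in animal 5 through a median of 10.45 to 12.31 in animal 1, a 9.40-fold range. The high animals were 1, 7, 9 and 3 at 12.31, 11.87, 11.65 and 11.20, the middle ones 10 and 4 at 10.78 and 10.11, and animals 2, 8, 6 and 5 lay between 9.07 and 9.58. Its SD of 1.21 was larger than that of 99.5% of tested genes. It was 1.17 without animal 5 and 1.22 without animals 3 and 7.

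TNFRSF1A, the widely expressed receptor of tumour necrosis factor, stood at 9.33 ± 0.39 and was highest in animal 6 at 9.94. TNFRSF21, a death domain receptor, ran from 6.14 in animal 10 through a median of 7.25 to 8.30 in animal 2. The leukocyte receptor TNFRSF1B was dim at 5.82 ± 0.84 and above the line in animal 6 alone, at 7.83. The decoy TNFRSF6B, the T cell co-stimulators TNFRSF18 and TNFRSF25 and the ligands TNFSF13, TNFSF8 and TNFSF13B had means from 4.85 to 6.49.

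**Figure D2:**
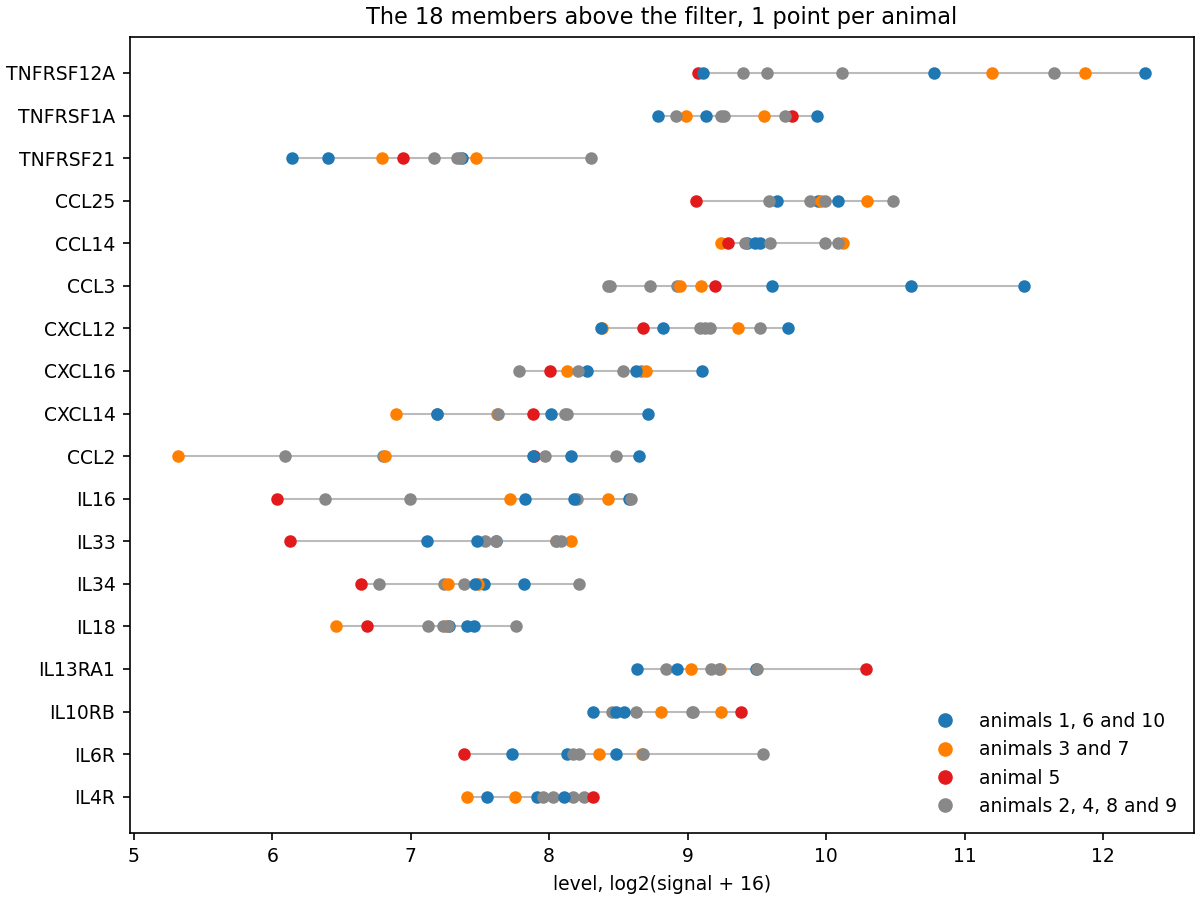
Level of the 18 genes with a mean above the filter, on the log2(signal + 16) scale (x axis), 1 point per animal, with colours for animals 1, 6 and 10, animals 3 and 7, and animal 5. TNFRSF12A spans 9.07 to 12.31, and animal 5 is the lowest point for 6 genes and the highest for 3.

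Animal 5 held the lowest value for 6 of the 18 genes and the highest for 3, and over all tested genes it was lowest for 27.6% and highest for 21.1%. Animal 6 was highest for 6 of the 18, against 11.6% of all tested genes, and lowest for none, against 10.8%. On the brightest probe sets these 6 were CCL2, CCL3, CXCL12, CXCL14, CXCL16 and TNFRSF1A. On the second probe set of CCL2 animal 6 was again highest, at 7.60. On the second of CCL3 it was lowest, at 4.81 against 5.49 to 6.80 in the others. On the second of CXCL16 it stood at 7.12, and animal 10 was highest at 7.81. Animal 6 was also highest for 8 of 10 fibroblast markers and 4 of 9 leukocyte markers, and it had the highest leukocyte score, 0.82. Its array also had the highest deposited median, 134. The part of these cells or of array brightness in the 6 values was not tested.

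Spread between animals was counted as an SD over 0.5. Of the 18 genes, 8 (44.4%) exceeded it, against 22.1% of all tested genes: TNFRSF12A, CCL2, CCL3, IL16, IL33, TNFRSF21, IL6R and CXCL14. The median SD was 0.46 over the 18 and 0.36 over the 6271. Without animal 5, 7 of the 18 (38.9%) and 14.6% of tested genes exceeded 0.5. Dim genes had larger SDs, and the members were therefore also set beside genes of like level. Between the line and a level of 8 the median SD was 0.58 over 8 members and 0.44 over 1360 genes. From 8 to 9 it was 0.39 over 3 members and 0.37 over 1436 genes, and from 9 to 10 it was 0.43 over 6 members and 0.34 over 1221 genes. Over 10 the 1 member, TNFRSF12A, had 1.21 against a median of 0.32 over 2254 genes. Of the 18, 14 were above the median SD of their own level band. The count of 8 was 5 with a pseudocount of 64, where the share of all tested genes was 14.5%, and 4 of 13 when the probe sets of a gene were averaged, where it was 19.5%. No sample has a repeat array, so array error and animal differences are joined in each SD.

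**Figure D3:**
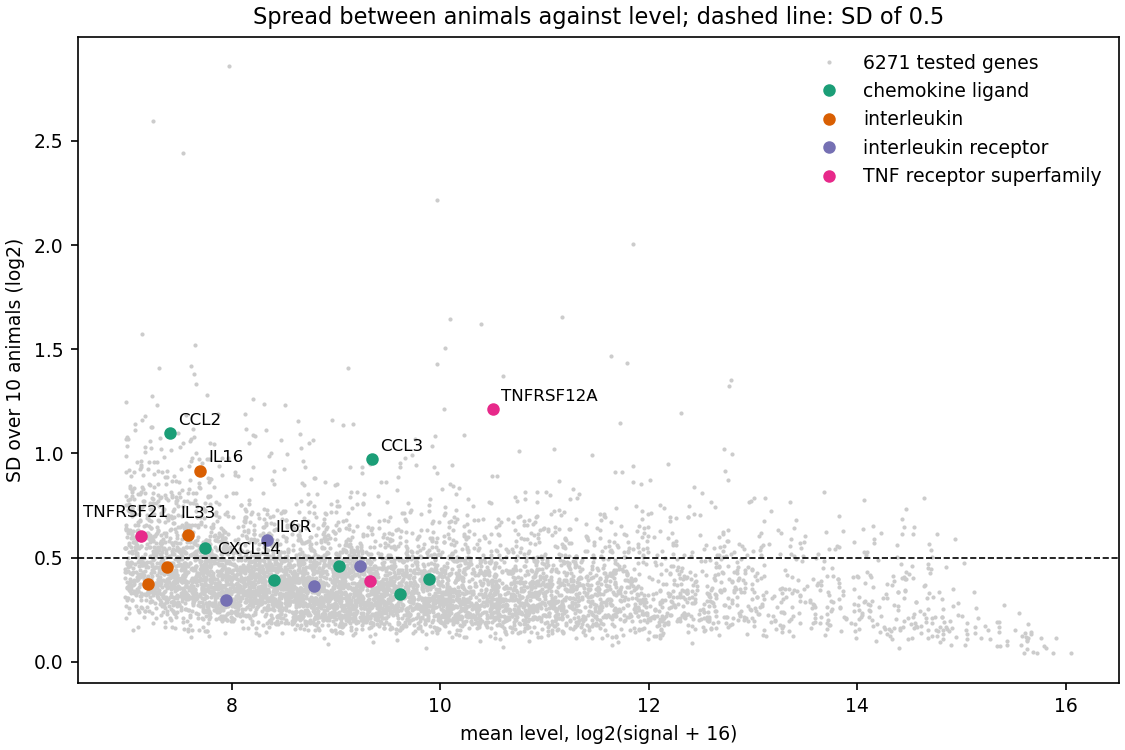
SD over 10 animals (y axis, log2) against mean level (x axis, log2(signal + 16)) for 6271 tested genes in grey and the 18 members in colour by family. TNFRSF12A, CCL2, CCL3 and IL16, with SDs from 0.92 to 1.21, lie in the upper part of the cloud at their level.

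A second probe set was available for 10 of these 18 genes, and its values across animals followed the brightest one in some genes and not in others. The r between both probe sets was above 0 for 6 of the 10, with a median of 0.54, and 1 passed after adjustment over the 10. In IL6R Pearson's r was 0.847 (p = 0.00190 by permutation, adjusted 0.0190) and Spearman's rho 0.733 (p = 0.0207 by permutation, adjusted 0.104), and r was 0.545 without the 2 animals farthest from the median of either probe set. In CCL2 Pearson's r was 0.700 (p = 0.0246 by permutation, adjusted 0.0820) and Spearman's rho 0.806 (p = 0.00690 by permutation, adjusted 0.0690), and r was 0.800 without the 2 animals farthest on the brightest probe set and 0.818 without those farthest on the second. In IL33 Pearson's r was 0.802 (p = 0.0135 by permutation, adjusted 0.0677) and Spearman's rho 0.539 (p = 0.113 by permutation, adjusted 0.188), and r was 0.653 without animal 5. The IL33 r was 0.619 without the 2 animals farthest on the brightest probe set and 0.064 without those farthest on the second, so it rests on the latter.

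In TNFRSF12A Pearson's r was 0.534 (p = 0.113 by permutation, adjusted 0.160) and Spearman's rho 0.442 (p = 0.204 by permutation, adjusted 0.273). It was 0.024 without the 2 animals farthest on either probe set, 0.736 without animal 5 and at least 0.385 with any 1 animal left out. The second probe set of TNFRSF12A was highest in animals 7 and 1, at 8.69 and 8.36, and next in animal 5 at 7.63, the lowest animal on the brightest one. In CCL3 the probe sets ran in opposite directions: Pearson's r was -0.671 (p = 0.0359 by permutation, adjusted 0.0898) and Spearman's rho -0.370 (p = 0.297 by permutation, adjusted 0.330), with r at 0.127 without the 2 animals farthest on the brightest probe set and -0.206 without those farthest on the second. In IL16, IL13RA1 and CCL25 the r was -0.411, -0.509 and -0.236, with permutation p of 0.242, 0.128 and 0.517 and rho of -0.564, -0.430 and -0.224. The patterns given above for CCL3, IL16, IL13RA1 and CCL25 therefore belong to 1 probe set each. Averaged over probe sets, the SD was 0.38 for CCL3 and 0.39 for IL16.

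**Figure D4:**
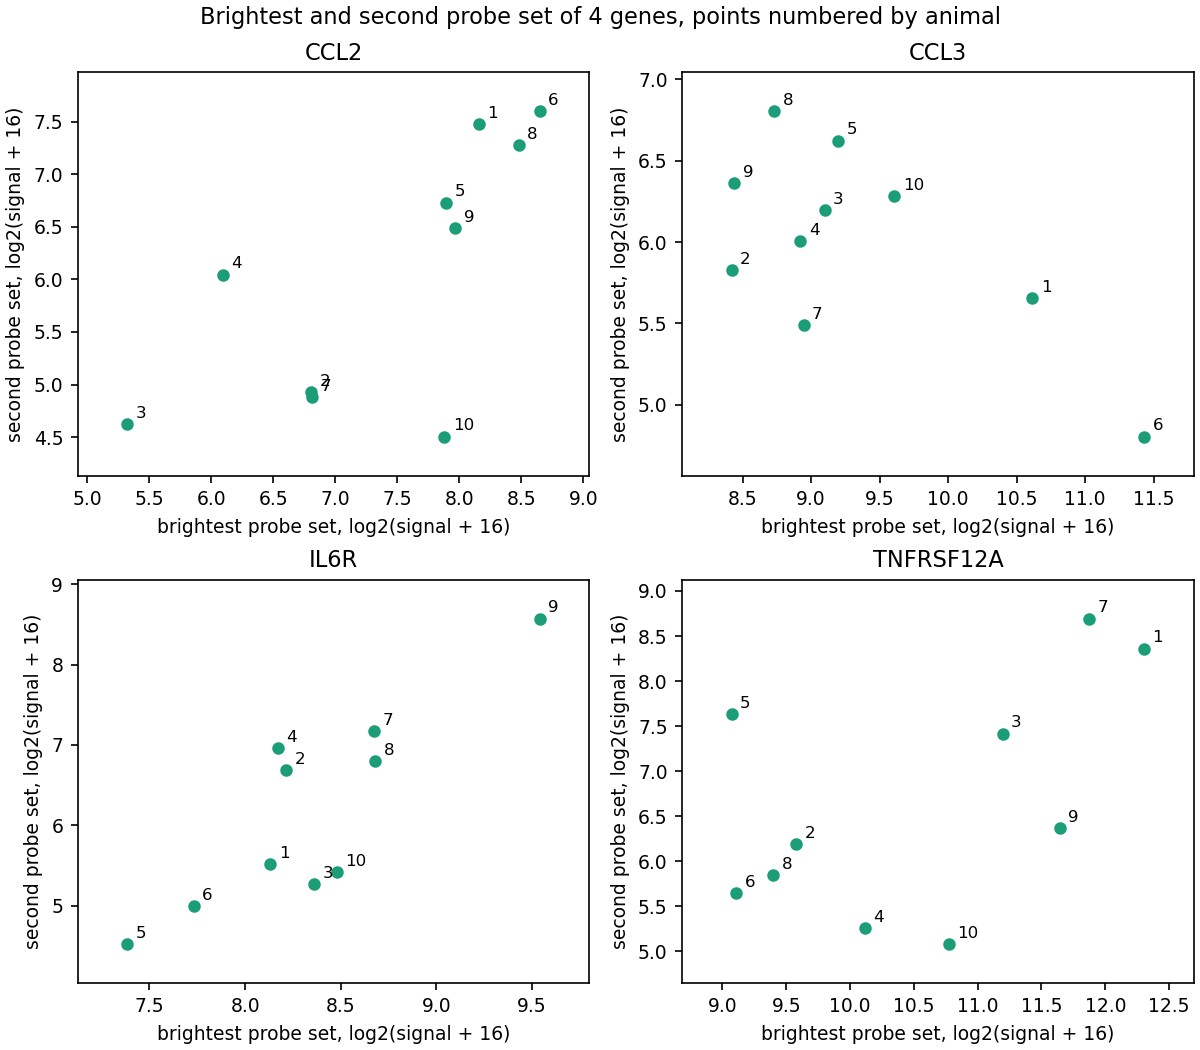
The second probe set (y axis) against the brightest (x axis) of CCL2, CCL3, IL6R and TNFRSF12A, both in log2(signal + 16), points numbered by animal. The r is 0.847 for IL6R, 0.700 for CCL2, 0.534 for TNFRSF12A and -0.671 for CCL3.

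The members were set against a leukocyte score, the mean deviation of 9 marker genes. None of the 82 genes is among these markers, but CSF1R, the receptor of IL34, is. With limma, 0 of the 18 passed, and 36 of 6262 genes outside the list did (0.575%), 35 that rose and 1 that fell. Markers of other cells moved with the score: 3 of 10 fibroblast markers (DCN, COL1A1 and SPARC) rose with it, with a median slope of 0.53 over that list, and so did 1 of 9 adipocyte markers (FABP4). The leukocyte list itself had 3 of 9 and a median slope of 0.43, so immune, stromal and fat cell content cannot be told apart by this score. Of the 18 slopes, 14 were above 0, as were 54.6% of those of all genes, and their median was 0.17 log2 per SD of the score against 0.02. The smallest p belonged to IL33, with a slope of 0.41 (SE 0.15, limma adjusted p = 0.225). CXCL12, IL16, IL6R and IL4R followed with slopes of 0.26, 0.45, 0.27 and -0.17 and limma adjusted p of 0.308, 0.351, 0.421 and 0.453. At an unadjusted p below 0.05 stood 1 of the 18, IL33, and 16.1% of all genes. A Spearman correlation per gene called 4 genes and 0 members, of which 1 had an unadjusted p below 0.05. The score was lowest in animal 5, at -0.98, where 7 of its 9 genes were lowest. That animal was also lowest for IL33, IL16 and IL6R on their brightest probe sets.

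An adipocyte score over 9 fat cell markers was fitted in the same way. Again 0 of 18 members passed in limma, and 1 of 6262 genes did (0.016%), the lipolysis inhibitor G0S2. CCL14 had the smallest p, with a slope of 0.25 (SE 0.09, limma adjusted p = 0.763), and was the single member at an unadjusted p below 0.05, against 5.38% of genes. IL6R, IL33, TNFRSF1A and TNFRSF12A followed with slopes of 0.29, 0.28, 0.17 and 0.40 and limma adjusted p from 0.934 to 0.991. A Spearman correlation per gene called 3 genes and 0 members, with 1 member at an unadjusted p below 0.05.

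A plasma protein score, over 10 genes of liver-made proteins, was used because interleukins 6 and 1 are known to drive acute phase genes in liver. FGG, TF, HP and VTN carried it, with slopes of 2.73, 2.37, 2.29 and 1.54 on the score of the other list genes, while ALB and AHSG had -0.07 and 0.04. Of the 18 members 0 passed in limma, and 4 of 6261 genes did (0.0639%): SERPINC1, C4BPA, F2 and SERPINA3-7, which also encode plasma proteins. At an unadjusted p below 0.05 stood 4 members, against 4.82% of genes. They were CCL2 with a slope of -0.67 (SE 0.25), CXCL14 with -0.34 (SE 0.15), CCL25 with 0.25 (SE 0.11) and TNFRSF12A with 0.65 (SE 0.29), each at a limma adjusted p of 0.892. IL33 followed at 0.33. A Spearman correlation per gene called 0 genes, with 297 genes and 1 member at an unadjusted p below 0.05. Without animals 3 and 7 CCL25 passed at 0.36 (limma adjusted p = 0.0466), in a fit that called 490 of 6252 genes. With the filter at the 75th percentile CCL25 passed at 0.31 (limma adjusted p = 0.0394) and IL13RA1 at -0.36 (limma adjusted p = 0.0311). In that fit the score rested on 3 genes and 540 of 3725 genes were called. The CCL25 slope on the plasma protein score was -0.069 when its probe sets were averaged.

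**Figure D5:**
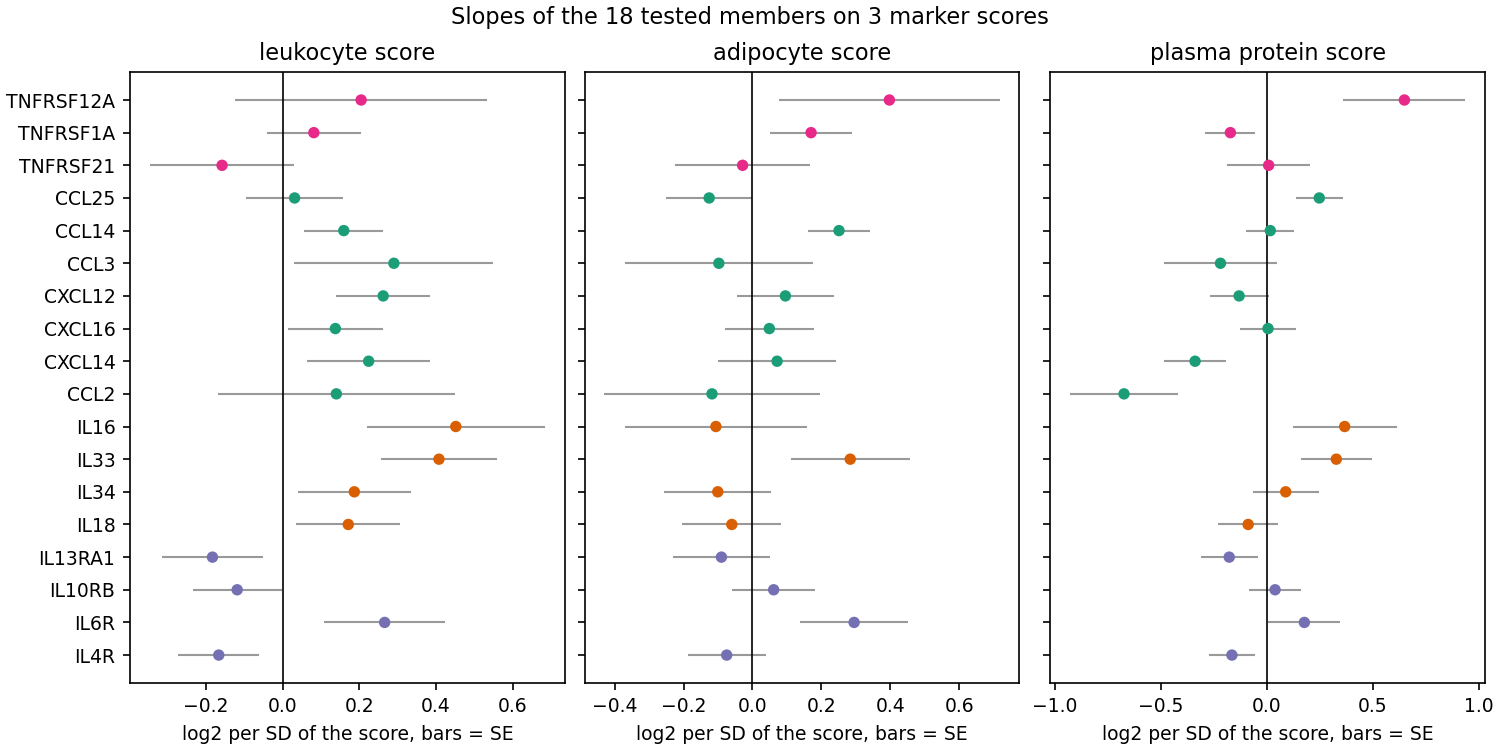
Slope of each of the 18 tested members on the leukocyte, adipocyte and plasma protein scores (x axis, log2 per SD of the score; bars are the SE from limma), colours by family. None passed over all genes, and on the leukocyte score 14 of the 18 slopes are above 0.

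Ligands and their receptors, and receptor chains that work together, were set beside each other across animals. Of 62 textbook pairs listed, 19 had both genes on the array and 1 had both above the line. That pair joins receptor chains, so no ligand could be set beside its receptor with both above the line. For IL4R and IL13RA1, which form the type II interleukin-4 receptor, Pearson's r was 0.208 (p = 0.570 by permutation) and Spearman's rho 0.103 (p = 0.787 by permutation). The r was 0.579 without the 2 animals farthest from the median of IL4R, -0.345 without the 2 farthest from that of IL13RA1 and -0.275 without animal 5, so its sign depended on which animals were left out. With dim genes kept, 0 of 19 pairs passed and 0 had an unadjusted permutation p below 0.05.

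All 153 pairs of the 18 genes were compared as a choice made after the data had been seen. None passed the adjustment. Of the 153, 7 had an unadjusted permutation p below 0.05, and chance alone gives about 1 in 20. Only the brightest probe set of each gene entered these pairs. The second probe sets of IL16 and IL13RA1 had an r of -0.411 and -0.509 with the brightest. Pairs with either gene therefore rest on 1 probe set of that gene. For IL16 and IL34 Pearson's r was 0.859 (p = 0.000750 by permutation, adjusted 0.115) and Spearman's rho 0.770 (p = 0.0125 by permutation, adjusted 0.826), with r at 0.587 without the 2 animals farthest on IL16, 0.804 without those farthest on IL34 and 0.783 without animal 5. IL13RA1 and TNFRSF12A ran in opposite directions: Pearson's r was -0.798 (p = 0.00159 by permutation, adjusted 0.122) and Spearman's rho -0.855 (p = 0.00249 by permutation, adjusted 0.381), with r at -0.743 without the 2 animals farthest on TNFRSF12A, -0.798 without those farthest on IL13RA1 and -0.858 without animal 5. For CXCL12 and CXCL14 Pearson's r was 0.730 (p = 0.0173 by permutation, adjusted 0.814) and Spearman's rho 0.697 (p = 0.0306 by permutation, adjusted 0.826), with r at 0.473 without the 2 animals farthest on CXCL12 and 0.415 without those farthest on CXCL14.

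Signalling genes downstream of the receptors were taken as 2 lists, and their shares above the line stand beside the 68.5% of all named genes. Of the NF-kB and TNF receptor signalling list, 21 of 26 measured genes were (80.8%), with a median SD of 0.33 and 5 (23.8%) over 0.5, against 22.1% of all tested genes. The largest SDs were those of the inhibitor NFKBIB (7.17 ± 1.03), the death domain adaptor FADD (7.32 ± 0.79) and the feedback inhibitor NFKBIA (9.97 ± 0.60). Of the JAK-STAT list, 11 of 17 were above it (64.7%), with a median SD of 0.40 and 2 (18.2%) over 0.5. The kinase JAK1 stood at 12.13 ± 0.20 and the transcription factor STAT3 at 9.77 ± 0.21, while the feedback inhibitors CISH (10.04 ± 1.21) and SOCS2 (8.12 ± 0.70) varied most. SOCS3, induced by interleukin-6 signalling, was dim at 5.33 ± 0.53. In either list 0 genes passed against any of the 3 scores in limma. The smallest p was that of IRAK4, a kinase of interleukin-1 signalling, on the leukocyte score, with a slope of 0.26 (limma adjusted p = 0.225). TAB2 on the leukocyte score (-0.34) and NFKBIE on the plasma protein score (-0.26) were the others at an unadjusted p below 0.05.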

How the data were processed

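Poly(A) RNA of 10 muscle samples was hybridized to the GeneChip Bovine Genome Array, per the labels. The deposited values are linear intensities scaled by the authors, 1 for each probe set and array: their trimmed mean lay between 500.177 and 500.203 on every array. The software was a detail not given in the sources used here. From the intensities, log2(signal + 16) was taken and quantile normalized without 112 control probe sets. Platform annotation named 13292 of 24016 probe sets with 1 symbol. The members and lists were chosen with earlier results of these data known.

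Genes with a mean over 6.98, the array's median level, were tested (6271 of 9155). Slopes on a score in SD units were fitted over all of them in limma (version 3.58.1, R version 4.3.3), with a trended variance prior and Benjamini-Hochberg adjustment at 0.05. List genes were left out of counts and of their own score. Correlations used two-sided permutation tests with 100000 resamples, coded in Python (version 3.11.15) with ranks from scipy (version 1.17.1). Named members are the 10 with the largest SDs, the brightest of each class and the 5 smallest p of each fit; the rest are given by name, mean or range.

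On simulated data with 200 changed genes, the leukocyte fit over 6262 genes recovered 95% of slopes of 1 and 52% of slopes of 0.5, with 10 of 157 calls false. The adipocyte fit over 6262 genes recovered 97% and 60%, with 14 of 171 calls false, and the plasma protein fit over 6261 genes 97% and 61%, with 3 of 161 false. In these simulations the noise was drawn separately for each gene. In the data animal 5 alone was lowest for 27.6% of tested genes, so these rates may not carry over. The labels number the samples but do not say more of their origin, so p-values measure the spread between these samples. The number of arrays limits the precision.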

Additional observations from a re-analysis of the deposited data

Results flagged for a closer look

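Each of the 82 genes, the 3 scores and the poly(A) control difference were checked for 1 animal standing apart from the other 9, by its gap to the nearest animal as a share of the whole range. The gap was above Dixon's 95% limit in 9 of these 86 results, and chance gives about 1 in 20. Animal 5 was concerned in 3. It was high in the poly(A) control difference, at 2.80 against 1.09 to 1.38 (gap 0.831). It was low in IL33, at 6.13 against 7.12 to 8.16 (gap 0.487), and high in IL13RA1, at 10.29 against 8.63 to 9.50 (gap 0.474). Both gene values are those of the brightest probe set. On the third probe set of IL33 animal 5 was highest, at 8.48. On the second probe set of IL13RA1 it stood at 6.89 against 6.80 to 7.87.

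The other 6 are dim genes. IL2 was high in animal 10, at 6.95 against 4.33 to 5.16 (gap 0.680), and TNFRSF1B in animal 6, at 7.83 against 4.92 to 6.41 (gap 0.488). IL10 was low in animal 8, at 5.15 against 6.08 to 6.71 (gap 0.599), and TNFRSF25 in animal 10, at 5.20 against 6.19 to 7.14 (gap 0.510). IL1RN was low in animal 9, at 4.72 against 5.97 to 7.31 (gap 0.483), and IL4 in animal 4, at 4.24 against 5.73 to 7.38 (gap 0.473). The cause was not tested for any of them.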

How the results depend on the processing

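The 18 tested members and the 8 with an SD over 0.5 stayed within 1.5 times under the deposited scaling, median centring and a pseudocount of 1, and with each animal left out (18, and 7 to 8). They were 82 and 57 with no filter, and 7 and 2 with the filter at the 75th percentile. The 8 were 5 with a pseudocount of 64 and 4 with the mean of probe sets. A narrower reading of the symbol rule left 76 members.

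No member passed against the leukocyte or adipocyte score under any alternative run. Against the plasma protein score 1 of 18 members passed without animals 3 and 7, where 490 of 6252 genes did. With the 75th percentile filter 2 of 7 members passed, where 540 of 3725 genes did. The cause was not tested. Over all genes, the 36 against the leukocyte score were 14 with no filter, 21 with the mean of probe sets, 17 without animals 3 and 7, 15 without animals 3, 5 and 7, 15 with the poly(A) difference as a covariate, 4 by Spearman correlation and 2 without animals 1, 6 and 10, a choice made after seeing the data. With each animal left out they were 6 to 35, and 6 to 22 without any 1 of animals 4 to 10. The 1 against the adipocyte score was 2 with no filter, 3 by Spearman correlation, 0 with the 75th percentile filter, the median score or without animals 3 and 7 or 3, 5 and 7, and 0 to 1 with each animal left out, 0 without animal 2 or 9. The 4 against the plasma protein score were 25 with no filter, 540 with the 75th percentile filter, 490 without animals 3 and 7, 0 without animals 3, 5 and 7, 0 by Spearman correlation and 0 to 5 with each animal left out, 0 without animal 3 and 2 without animal 7. The CCL25 slope on the plasma protein score was -0.069 with the mean of probe sets, and the IL33 slope on the plasma protein score -0.14 without animals 3, 5 and 7. The leukocyte fit was not run with the 75th percentile filter, which leaves no gene of its list. Leaving out the animals farthest on the second gene or probe set of a pair was also chosen after seeing the data. Low signal limits the 64 dim genes.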
